A study of Homo sapiens with 6 samples.

Results

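Notch pathway genes were examined in RNA-seq libraries of J82 cells, an established line from a human bladder cancer. The set held 41 genes of the 57820 in the count table, chosen by name: 4 Notch receptors, 5 canonical and 3 atypical ligands, 4 receptor glycosylation enzymes, 7 endocytosis and ubiquitin factors, 5 components linked to gamma-secretase, 4 members of the nuclear complex, 8 HES and HEY repressors, and NRARP. All 41 symbols matched 1 row each. The labels gave 3 control libraries, described in the study's methods as vector control cells, and 3 libraries of FOXC1 knock-out (KO) cells made with lentiCRISPR v2 and 1 guide RNA. FOXC1 encodes a forkhead transcription factor. Both groups were grown in DMEM with 10% FBS, the cells had been selected with puromycin per the study's methods, and whether the KO libraries came from a single clone or from separate cultures was not stated, so the p-values measure only the spread between these libraries.

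Notch receptors are membrane proteins that are activated by ligands on neighbouring cells. Ligand binding and endocytosis of the ligand expose the receptor to ADAM proteases and then to gamma-secretase, which releases the Notch intracellular domain. This domain binds RBPJ and a Mastermind coactivator in the nucleus and turns on genes such as HES1, HEY1 and NRARP, whose products repress transcription or Notch activity in turn.

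The control libraries held 22900531, 24142727 and 25013311 counts, and the KO libraries 18408134, 25350908 and 23611005. The level of FOXC1 RNA was 18.2 ± 1.21 CPM in control and 22.5 ± 1.49 CPM in KO (SD, n = 3 each), a log2 fold change of 0.30 ± 0.091 (SE, edgeR adjusted p = 0.0127). Its adjusted p was 0.0784 without KO replicate 1 and 0.0827 without control replicate 2. The transcript was thus no lower under the KO label and does not check it, and KO below means the libraries labelled so. The paper reports that knock-out clones were checked by western blot, with less FOXC1 protein in the knock-out cells, which is not analysed here. CPM is the count of a gene per 1000000 counts of its library after TMM scaling. Of general epithelial markers, KRT8, KRT18, KRT19 and EPCAM were present and 4 of 5 were lower in KO, with summed levels of 2110 to 2740 CPM in control and 1480 to 1630 CPM in KO, while CDH1 was near 0 (0.0850 and 0.0504 CPM). Of 11 luminal urothelial markers 5 had enough counts to be tested and 4 were lower, and UPK3A was at 0. Their summed levels of 166 to 169 and 120 to 124 CPM were mostly PPARG (124 CPM in control) and GATA3 (35.3). Of 6 basal ones 2 were tested and 1 was lower (3.22 to 3.79 and 2.06 to 2.39 CPM), with KRT6A at 0. Of 6 mesenchymal markers 2, ZEB1 and COL1A1, were higher (1750 to 1890 and 1790 to 2060 CPM). Endothelial markers summed to 0.707 to 0.983 CPM in control and 1.67 to 1.96 CPM in KO. Of these 5 markers 2 were tested and 1, CDH5, was higher. Of all tested genes, 8.39% were lower and 7.57% higher by the rule for a call given below. The part of these shifts in the Notch results was not tested, and in bulk RNA fewer cells of a type cannot be told apart from less RNA per cell.

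Of the 41 genes, 30 had enough counts to be tested and 11 did not. A gene was called when its adjusted p was under 0.05 and its fold change over 1.3. Among the 30 tested genes, 4 were called lower in KO (NOTCH1, JAG2, APH1B and HES1) and 6 higher (DLK2, LFNG, DTX4, RBPJ, HES7 and NRARP). These 10 genes made up 33.3% of the tested members, where 16.0% of all 15647 tested genes were called (8.39% lower and 7.57% higher). The members were chosen with earlier results of these data known, so setting these shares side by side is not a test of the pathway. The median log2 fold change was 0.105 over the tested members and -0.001 over all tested genes, and the median size of the change was 0.210 and 0.183. All KO libraries lay on one side of all control libraries for 43.3% of the tested members and for 41.3% of all tested genes. At an adjusted p under 0.05 with any fold, 5 were lower and 8 higher, where 29.4% of all tested genes passed. The genes added by this looser rule were NOTCH2, POFUT1 and DTX3L. With 1 library omitted, their adjusted p in edgeR rose as high as 0.0685, 0.145 and 0.069. The calls were spread over the pathway, with both directions among the ligands and among the HES genes. The mixed directions rest on DLK2 and HES1, whose calls were lost with DESeq2 (adjusted p = 0.168 and 0.174). With 3 libraries against 3, an exact permutation test of a single gene cannot go below 0.1, so the p-values given are those of edgeR across all genes.

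**Figure D1:**
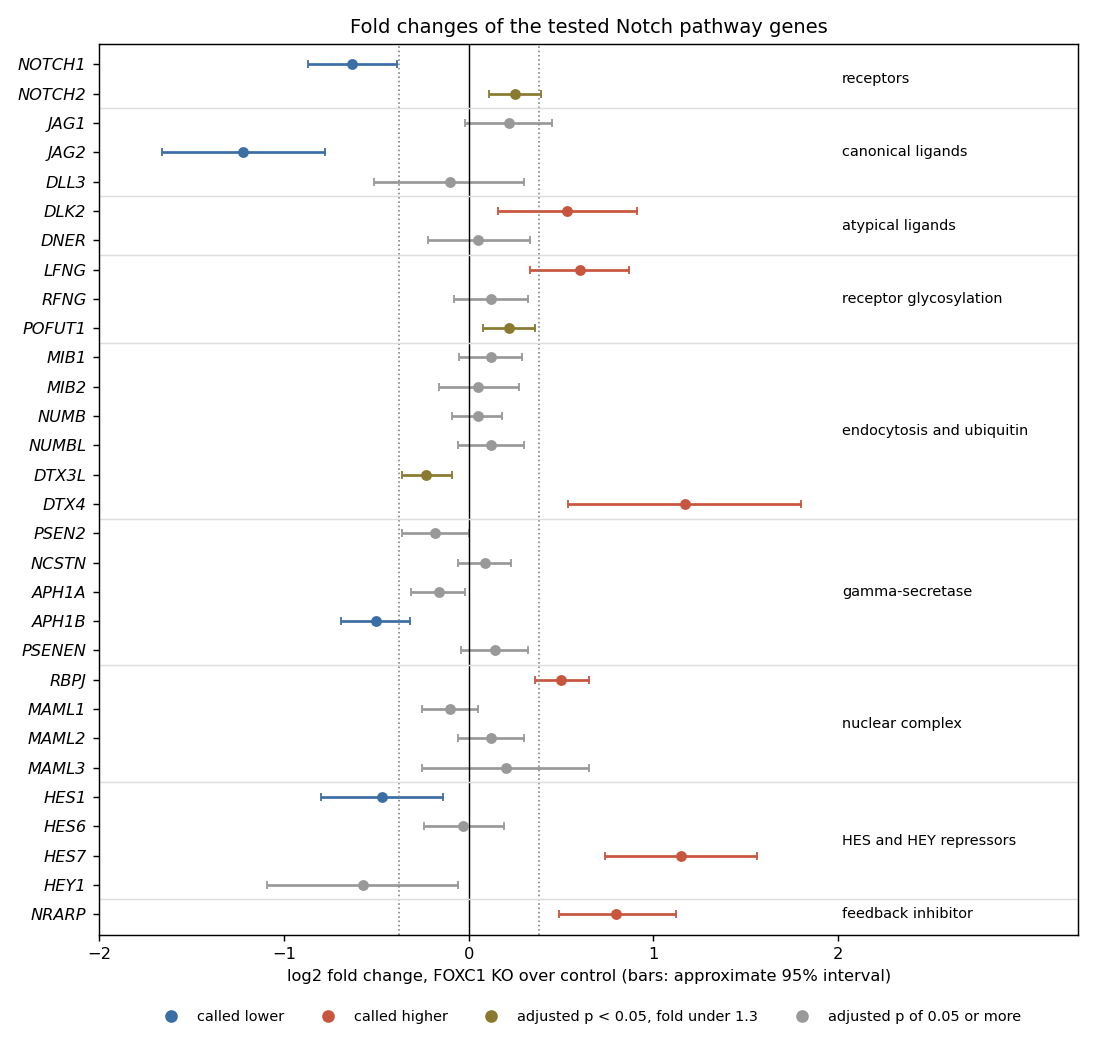
Log2 fold change of KO over control for the 30 tested Notch pathway genes, grouped by role, with approximate 95% intervals from the standard error and dotted lines at a fold change of 1.3 in either direction. Blue points were called lower, red points higher, olive points had an adjusted p under 0.05 with a smaller fold, and grey points did not pass; JAG2 lies lowest at -1.22 and DTX4 highest at 1.17.

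The 11 genes that were not tested had at most 8 counts in any library. NOTCH3, NOTCH4, DLL1, DLL4, MFNG, HES2 and HEY2 were detected in at least 1 library. DLK1, DTX1, HES5 and HEYL had 0 counts in all 6 libraries. A count of 0 allows up to 3 counts, which is 0.118 to 0.163 CPM in these libraries and covers counting error only. HEY2, a Notch-responsive repressor, had 3, 8 and 3 counts in control and 1, 2 and 1 counts in KO. These groups did not overlap, but the counts lie at or near the floor and were not tested.

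The receptors were examined first. Scaled to kilobases of merged exons, NOTCH2 was the main receptor, with 9.93 ± 0.505 CPM per kilobase in control and 11.8 ± 0.786 in KO (SD, n = 3). NOTCH1 followed with 0.814 ± 0.141 CPM per kilobase in control and 0.524 ± 0.0168 in KO (SD, n = 3). NOTCH3 (0.0176 CPM per kilobase in control) and NOTCH4 (0.00409) lay far below, and the spread of these last 2 receptors rests on 0 to 7 counts per library. With the canonical transcript as the length, NOTCH2 stood at 14.6 and NOTCH1 at 1.07 CPM per kilobase in control, and their order did not change.

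NOTCH1 (ENSG00000148400.9, GRCh37 chromosome 9, 139388885 to 139440500, minus strand) encodes the receptor best known for its part in T cell and epithelial differentiation. It stood at 12.2, 8.88 and 9.51 CPM in control and at 6.79, 6.54 and 6.37 CPM in KO. All KO libraries lay below all control libraries, and control replicate 1 was the highest of the 6. NOTCH1 fell 1.55-fold, with a log2 fold change of -0.63 ± 0.123 (SE, edgeR adjusted p = 0.000212). NOTCH2 (ENSG00000134250.13, chromosome 1, 120454176 to 120643366, minus strand) stood at 176, 161 and 162 CPM in control and at 209, 199 and 183 CPM in KO. The groups did not overlap here either, in the opposite direction. The log2 fold change of NOTCH2 was 0.25 ± 0.071 (SE, edgeR adjusted p = 0.00911), or 1.19-fold, which is under the fold threshold. NOTCH2 has near-identical partial copies on chromosome 1, and how their shared reads were counted was not stated, so its value is uncertain.

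The balance between the receptors can be read within each library, where library scaling plays no part. NOTCH1 supplied 6.49%, 5.23% and 5.55% of the summed NOTCH1 and NOTCH2 reads in the control libraries. In the KO libraries it supplied 3.14%, 3.18% and 3.36%. The highest Wilson 95% bound in KO was 3.93% and the lowest in control 4.59%, so the intervals did not meet. These intervals cover counting error only, as reads are not independent molecules.

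**Figure D2:**
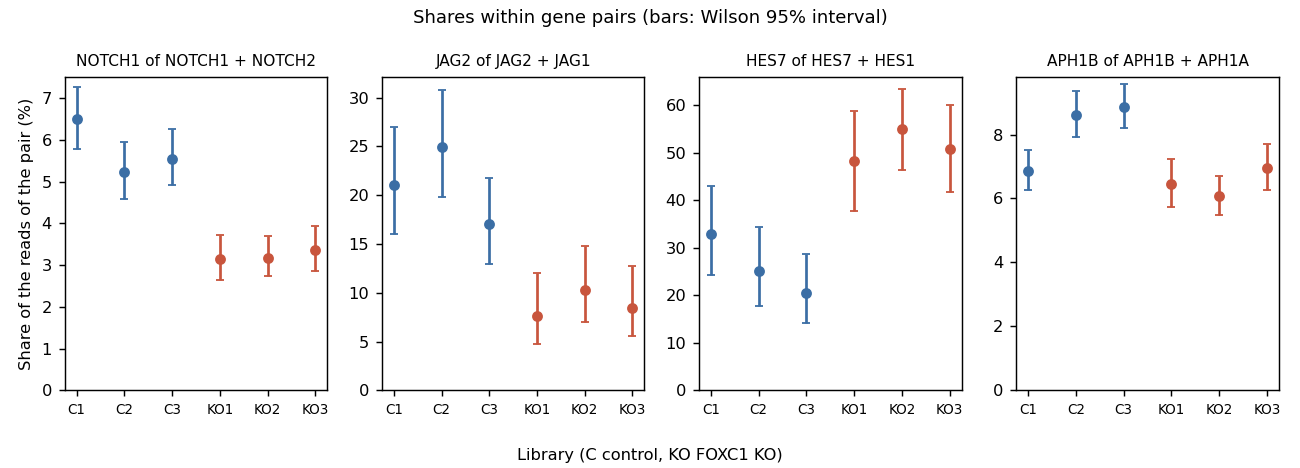
Share of the first gene among the summed reads of a gene pair in each library (%), with Wilson 95% intervals, for control (C1 to C3, blue) and KO (KO1 to KO3, red) libraries. The shares of NOTCH1 and JAG2 lie lower in all 3 KO libraries and that of HES7 higher, while the share of APH1B in control replicate 1 (6.86%) lies below that in KO replicate 3 (6.95%).

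Among the canonical ligands, JAG1, JAG2 and DLL3 were expressed above the filter, and DLL1 (0 to 6 counts) and DLL4 (0 to 3 counts) were not. JAG1 and DLL3 were at a similar level per length in control, with 0.858 ± 0.118 and 0.713 ± 0.149 CPM per kilobase (SD, n = 3), a difference within their spread, and JAG2 stood lower at 0.326 ± 0.0448. With the canonical transcript as the length JAG1 (1.34 ± 0.184) lay above DLL3 (0.931 ± 0.195) by more than their spread. JAG2 (ENSG00000184916.4, chromosome 14, 105607319 to 105635161, minus strand) is a transmembrane ligand of the Jagged class. It stood at 1.96, 2.42 and 1.89 CPM in control and at 0.869, 0.951 and 0.850 CPM in KO, from 44 to 59 and from 16 to 24 counts. The groups were separated by a wide gap. JAG2 fell 2.33-fold, the lowest log2 fold change of the tested members at -1.22 ± 0.223 (SE, edgeR adjusted p = 9.9e-05).

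JAG1, the other Jagged ligand, stood at 7.40, 7.29 and 9.24 CPM in control and at 10.5, 8.33 and 9.18 CPM in KO. The groups overlapped, and its log2 fold change of 0.22 (95% interval -0.02 to 0.45, adjusted p = 0.183 in edgeR) did not pass. JAG2 supplied 21.0%, 24.9% and 17% of the summed Jagged reads in control and 7.62%, 10.3% and 8.47% in KO. The highest KO bound of 14.8% exceeded the lowest control bound of 13%, so single libraries could not be told apart throughout on counting error. DLL3, a Delta-class protein that acts mainly as an inhibitor inside the cell, had a log2 fold change of -0.10 (95% interval -0.51 to 0.30, adjusted p = 0.750).

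DLK2 and DNER are atypical ligands, and DLK2 resembles DLK1, a Delta-like protein that has been linked to Notch inhibition. DLK2 (ENSG00000171462.10, chromosome 6, 43418090 to 43424370, minus strand) stood at 2.09, 1.56 and 1.85 CPM in control and at 2.72, 3.13 and 2.08 CPM in KO. Control replicate 1 lay just above KO replicate 3, so the groups overlapped by 1 library. The log2 fold change was 0.53 ± 0.193 (SE, edgeR adjusted p = 0.0367). The call was lost with DESeq2 (adjusted p = 0.168), after thinning all libraries to the smallest (0.0690), and without control replicate 2 (0.145), control replicate 3 (0.0666), KO replicate 1 (0.0782) or KO replicate 2 (0.223). The exons of DLK2 overlap ABCC10 on the opposite strand, which had 263 to 383 counts against 38 to 79 for DLK2, and the strand setting of the counting was not stated. DNER had a log2 fold change of 0.05 (95% interval -0.22 to 0.33, adjusted p = 0.820).

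The enzymes that put sugars on the receptor were examined next. POFUT1 adds O-fucose to the receptor, and the Fringe enzymes LFNG, MFNG and RFNG extend this fucose and change which ligands the receptor answers to. POFUT1 was the most abundant member of this group, with 37.2 ± 2.86 CPM per kilobase in control and 43.3 ± 2.60 in KO (SD, n = 3). Its log2 fold change was 0.22 ± 0.072 (SE, edgeR adjusted p = 0.0207), a change of 1.17-fold under the fold threshold. LFNG (ENSG00000106003.8, chromosome 7, 2552163 to 2568811, plus strand) stood at 4.10, 3.85 and 3.85 CPM in control and at 4.94, 6.58 and 6.16 CPM in KO. All KO libraries lay above control, with KO replicate 1 nearest to it. LFNG rose 1.51-fold, with a log2 fold change of 0.60 ± 0.137 (SE, edgeR adjusted p = 0.00132). RFNG did not pass (0.12, 95% interval -0.08 to 0.32, adjusted p = 0.408) and MFNG had at most 3 counts. The exons of RFNG overlap GPS1 on the opposite strand, which had 1576 to 2608 counts against 272 to 455 for RFNG. The unstated strand setting limits this value as well.

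Among endocytosis and ubiquitin factors, MIB1 and MIB2 are ubiquitin ligases that act on the ligands, NUMB and NUMBL oppose the receptor, and the Deltex proteins act on it in the endosome. MIB1, MIB2, NUMB and NUMBL had log2 fold changes of 0.05 to 0.12, with 95% intervals that stayed between -0.16 and 0.30. DTX4 (ENSG00000110042.3, chromosome 11, 58938903 to 58976061, plus strand) stood at 0.357, 0.368 and 0.472 CPM in control and at 1.03, 1.03 and 0.680 CPM in KO. The groups did not overlap, but these values rest on 8 to 12 and 16 to 26 counts. The log2 fold change of DTX4 was 1.17 ± 0.323 (SE, edgeR adjusted p = 0.00656), and its adjusted p with DESeq2 was 0.0708.

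DTX3L, a Deltex protein that works with PARP9 in the interferon and DNA damage response, was the second most abundant member per length in control (54.3 ± 0.572 CPM per kilobase, SD, n = 3). It stood at 312, 311 and 317 CPM in control and at 281, 251 and 272 CPM in KO. Its log2 fold change was -0.23 ± 0.068 (SE, edgeR adjusted p = 0.0122), under the fold threshold. PARP9 overlaps DTX3L on the opposite strand and had a log2 fold change of -0.39 (adjusted p = 8.64e-05), and without a stated strand setting the reads of the pair cannot be told apart.

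Gamma-secretase cuts the receptor within the membrane. APH1A and APH1B are alternative scaffold subunits, PSEN2 is a catalytic subunit, NCSTN binds the substrate, and PSENEN completes the complex. APH1A was the most abundant of all 41 genes per length, with 67.5 ± 6.29 CPM per kilobase in control and 60.3 ± 3.62 in KO (SD, n = 3), and APH1B stood at 3.78 ± 0.251 and 2.66 ± 0.0554. APH1B (ENSG00000138613.9, chromosome 15, 63568217 to 63601325, plus strand) stood at 19.1, 20.7 and 21.8 CPM in control and at 14.2, 14.4 and 14.8 CPM in KO. The KO libraries lay close together and below all control libraries. APH1B fell 1.42-fold, with a log2 fold change of -0.50 ± 0.093 (SE, edgeR adjusted p = 0.00011). The other subunits did not pass, with log2 fold changes of -0.18 for PSEN2 (adjusted p = 0.141), -0.16 for APH1A (0.102), 0.09 for NCSTN (0.431) and 0.14 for PSENEN (0.255). The exons of NCSTN overlap COPA on the opposite strand, which had 8523 to 11583 counts against 2147 to 2974 for NCSTN. COPA had a log2 fold change of 0.24 (adjusted p = 0.00754 in edgeR), and the strand setting was not stated. The share of APH1B in the summed APH1A and APH1B reads was 6.86%, 8.62% and 8.86% in control and 6.44%, 6.07% and 6.95% in KO, and these ranges overlapped, with control replicate 1 the lowest of its group.

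In the nuclear complex RBPJ, the DNA-binding protein through which all Notch receptors act, rose. RBPJ (ENSG00000168214.16, chromosome 4, 26165077 to 26436753, plus strand) stood at 85.8, 92.3 and 91.5 CPM in control and at 125, 121 and 137 CPM in KO. The groups were well apart. Its level in control was 5.87 CPM per kilobase of merged exons and 16.7 with the canonical transcript as the length. RBPJ rose 1.42-fold, with a log2 fold change of 0.50 (SE 0.073) and the smallest adjusted p of the members (3.35e-06 in edgeR). Processed pseudogenes of RBPJ are annotated, and the 4 found in the table were at 0 counts, while the handling of reads shared with them was not stated. The Mastermind coactivators did not pass, with log2 fold changes of -0.10 for MAML1 (adjusted p = 0.334), 0.12 for MAML2 (0.348) and 0.20 for MAML3 (0.548). The exons of MAML3 overlap MGST2 on the opposite strand, which had 364 to 591 counts against 25 to 47 for MAML3. The strand setting was not stated.

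**Figure D3:**
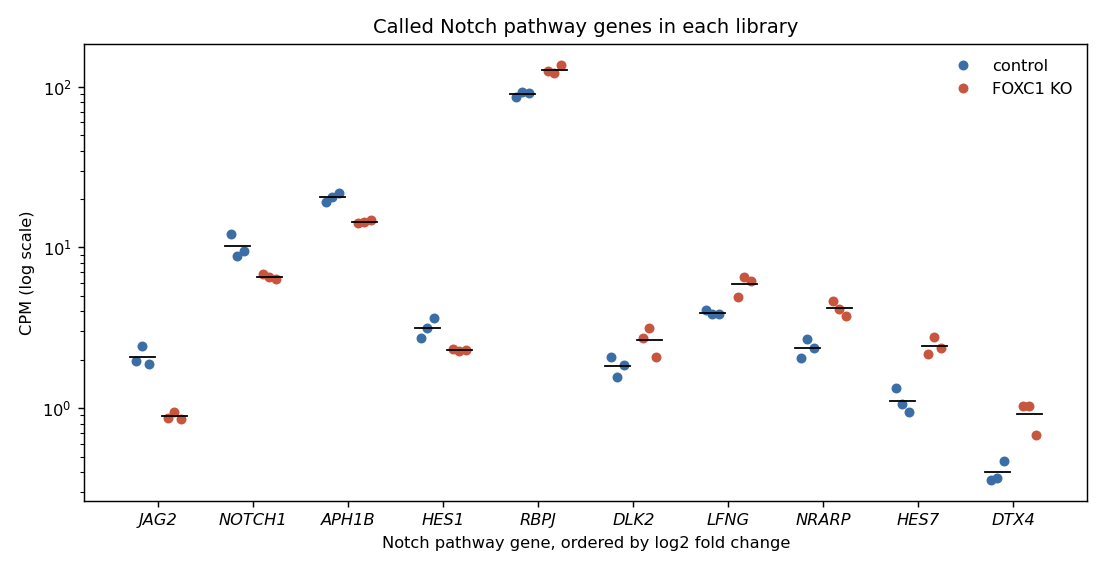
CPM on a log axis of the 10 called Notch pathway genes in each library, with the 3 control libraries in blue, the 3 KO libraries in red and black lines at the group means, ordered by log2 fold change. The groups overlap only for DLK2, whose KO replicate 3 (2.08 CPM) lies just below control replicate 1 (2.09 CPM).

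The HES and HEY genes, which encode helix-loop-helix repressors, are the usual readout of Notch activity. Among the 8 examined here, HES6 was the most abundant per length in control (5.27 ± 0.0566 CPM per kilobase), followed by HES1 (1.54 ± 0.227), HES7 (0.593 ± 0.107) and HEY1 (0.227 ± 0.0437, SD, n = 3 each). With the canonical transcript, HES7 (0.658 ± 0.119) and HEY1 (0.566 ± 0.109) differed by less than their spread. HES6, which counters HES1 and is not a usual Notch target, had a log2 fold change of -0.03 (95% interval -0.24 to 0.19, adjusted p = 0.884 in edgeR). The summed level of the 8 genes per kilobase was 7.59, 7.73 and 7.80 in control and 7.94, 8.28 and 7.09 in KO, and these ranges overlapped. HES6 made up most of this sum (5.27 of a mean of 7.71 in control), so the sum mainly follows HES6.

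HES1 (ENSG00000114315.3, chromosome 3, 193853937 to 193856521, plus strand) stood at 2.72, 3.15 and 3.65 CPM in control and at 2.34, 2.26 and 2.29 CPM in KO. The KO libraries were nearly equal and lay below all control libraries, of which replicate 1 was the nearest. The log2 fold change of HES1 was -0.47 ± 0.168 (SE, edgeR adjusted p = 0.0332), a fall of 1.39-fold. The call was lost with DESeq2 (adjusted p = 0.174), after thinning to the smallest library (0.125), when genes with low counts were kept (0.0541), and without control replicate 2 (0.0600), control replicate 3 (0.209), KO replicate 1 (0.0582), KO replicate 2 (0.0882) or KO replicate 3 (0.0746), so 8 of 13 alternatives did not hold it. HEY1 had 24 to 37 counts in control and 15 to 24 in KO. Its log2 fold change of -0.57 (95% interval -1.09 to -0.06, adjusted p = 0.101) did not pass, and the groups overlapped.

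HES7 moved the other way. It is the oscillating repressor of the somite clock in the embryo. HES7 (ENSG00000179111.4, chromosome 17, 8023910 to 8027424, minus strand) stood at 1.34, 1.06 and 0.943 CPM in control and at 2.17, 2.78 and 2.38 CPM in KO, from 24 to 30 and from 40 to 70 counts. All KO libraries lay above all control libraries. HES7 rose 2.22-fold, with a log2 fold change of 1.15 ± 0.209 (SE, edgeR adjusted p = 9.52e-05). HES7 supplied 33.0%, 25.2% and 20.5% of the summed HES1 and HES7 reads in control and 48.2%, 55.1% and 50.9% in KO. The values did not overlap, while the highest control bound of 43.1% exceeded the lowest KO bound of 37.8%.

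NRARP, a Notch target that binds the intracellular domain and limits its activity, rose as well. NRARP (ENSG00000198435.2, chromosome 9, 140194083 to 140196723, minus strand) stood at 2.05, 2.70 and 2.36 CPM in control and at 4.67, 4.12 and 3.74 CPM in KO. The groups did not overlap. NRARP rose 1.75-fold, with a log2 fold change of 0.80 ± 0.161 (SE, edgeR adjusted p = 0.000301). NRARP thus differed from control in the direction opposite to that of HES1, although both are listed as Notch targets, and the HES1 call was the less stable of the pair.

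**Figure D4:**
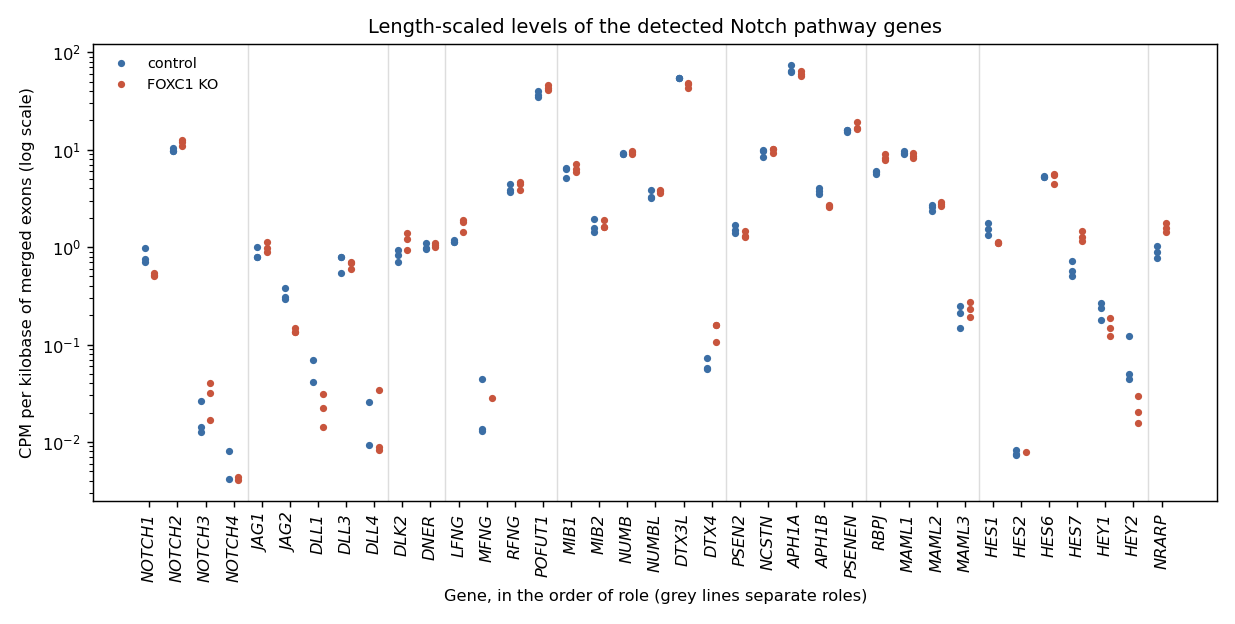
Level of the detected Notch pathway genes as CPM per kilobase of merged exons on a log axis, with 1 point per library (control blue, KO red), in the order of role. Libraries with 0 counts are not drawn; NOTCH2 lies above NOTCH1 in every library, and APH1A (67.5 in control), DTX3L (54.3) and POFUT1 (37.2) are the highest on average.

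To describe the promoters of these genes, the letters of an RBPJ site, GTGGGAA, were searched on both strands of RefSeq promoter windows (GRCh38.p14, 250 bases before to 50 after a start). Windows were found for 33 of the 41 genes, and not for DLL1, DLL3, DLK1, DNER, MFNG, DTX1, APH1B and HEY1. The 33 genes had 41 windows, so counts of genes and shares of windows below are unlike units. A match was present in at least 1 window of 5 of the 33 genes, which were RBPJ, HES1, HES5, HEY2 and HEYL. It was present in 6.25% of all 35116 windows. The letters GTAAACA, the core bound by many forkhead factors, were present in 1 of the 33, MAML3, and in 3.42% of all windows. No window of these genes held both. Of the 9 called genes with a window, HES1 and RBPJ held GTGGGAA. The windows of HES1 and RBPJ are shown for their matches, in capitals, and that of HES7 as the called HES gene with no match. The matches start 85 bases before the start of HES1 (forward strand), and 115 (reverse strand, read as TTCCCAC) and 73 (forward strand) bases before a start of RBPJ. A match is a run of letters and not a measured site, and the other 4 windows of RBPJ held none.
HES1 promoter, chr3:194135898-194136197, plus strand: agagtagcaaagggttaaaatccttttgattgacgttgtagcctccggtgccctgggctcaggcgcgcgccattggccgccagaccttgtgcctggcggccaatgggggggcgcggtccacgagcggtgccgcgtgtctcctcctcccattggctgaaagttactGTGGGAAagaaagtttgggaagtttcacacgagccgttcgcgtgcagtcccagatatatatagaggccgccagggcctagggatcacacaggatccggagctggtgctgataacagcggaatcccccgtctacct
RBPJ promoter, chr4:26319496-26319795, plus strand: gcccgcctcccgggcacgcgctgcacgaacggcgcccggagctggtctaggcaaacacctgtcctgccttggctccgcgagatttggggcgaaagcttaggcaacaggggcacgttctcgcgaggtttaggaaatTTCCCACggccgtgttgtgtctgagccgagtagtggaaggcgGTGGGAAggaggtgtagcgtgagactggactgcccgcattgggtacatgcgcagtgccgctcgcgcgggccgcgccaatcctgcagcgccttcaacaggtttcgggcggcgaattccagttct
HES7 promoter, chr17:8124057-8124356, minus strand: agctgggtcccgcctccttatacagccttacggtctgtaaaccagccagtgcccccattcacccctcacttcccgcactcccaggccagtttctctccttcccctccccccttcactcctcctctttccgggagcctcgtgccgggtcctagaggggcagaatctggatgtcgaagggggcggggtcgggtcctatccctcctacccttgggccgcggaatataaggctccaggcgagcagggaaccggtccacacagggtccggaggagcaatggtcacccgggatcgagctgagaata

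The position of the called genes was then compared with their neighbours, the tested genes whose lower coordinate lay within 1000000 bases of theirs. The 6 neighbours of RBPJ had log2 fold changes of 0.08 to 0.47, with a median of 0.34 and 3 called higher, so the rise of RBPJ (0.50) lay beside a shift of the same sign in the genes around it. The 60 neighbours of HES7 had a median of 0.21, with 10 called higher and 3 lower, and the 43 of DLK2 a median of 0.18, with 6 called higher. For the other called genes the median of the neighbours lay between -0.10 (JAG2, 21 neighbours) and 0.02 (HES1, 11 neighbours). Of the 54 neighbours of NOTCH1, 8 were called lower and 3 higher, and of the 53 of NRARP 8 and 2. These counts were 4 and 1 of 18 for LFNG, 3 and 1 of 21 for JAG2, and 2 and 0 of 11 for HES1. For APH1B they were 1 and 2 of 16, and for DTX4 0 and 0 of 11. Of all tested genes, 8.39% were called lower and 7.57% higher. NOTCH1 and NRARP lie within the same window on chromosome 9 and were called in opposite directions. The part of these regional values in the results was not tested.

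The other genes of the pathway were taken from a list made by role, also with earlier results of these data known. Its shares beside those of all tested genes are therefore description and not a test. Of its 57 symbols 56 matched, and 48 were tested, of which 3 were called lower and 7 higher (20.8%, beside 16.0% of all tested genes). The median log2 fold change was 0.035. NEURL1, a Neuralized ubiquitin ligase that acts on Notch ligands, changed most. It stood at 0.847, 0.737 and 0.747 CPM in control and at 4.08, 3.73 and 3.10 CPM in KO, a rise of 4.64-fold (log2 fold change 2.21, SE 0.206, adjusted p = 1.31e-09 in edgeR). Its relative NEURL1B fell from 14.4 ± 0.268 CPM to 9.61 ± 0.799 CPM (SD, n = 3; log2 fold change -0.58, adjusted p = 5.46e-05 in edgeR). The 2 Neuralized genes were thus called in opposite directions.

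Among 5 further enzymes of receptor glycosylation, 3 were called higher, where 7.57% of all tested genes were. EOGT, which adds O-GlcNAc, had a log2 fold change of 0.40 (adjusted p = 0.00216 in edgeR). GXYLT1 and GXYLT2, which extend the O-glucose added by POGLUT1, had 0.44 (0.000156) and 0.38 (0.00247). GXYLT2 lay at the fold threshold and fell short of it in 8 of 13 alternatives. EOGT fell short without control replicate 1 (0.32) and without KO replicate 3 (0.31). XXYLT1 had 0.23 (0.0499), under the fold threshold, and POGLUT1 0.03 (0.864).

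Among the 8 tested proteases and their tetraspanins, 2 were called higher, where 7.57% of all tested genes were. These were TSPAN14 and TSPAN15, partners of ADAM10. TSPAN14 rose from 79.9 ± 6.49 to 136 ± 6.45 CPM (SD, n = 3; log2 fold change 0.76, adjusted p = 3.65e-09 in edgeR), and TSPAN15 had a log2 fold change of 0.41 (adjusted p = 0.00794). TSPAN15 fell short of the call after thinning (0.35) and without control replicate 2 (0.36) or KO replicate 2 (0.35). The other tetraspanins of the list were not called and lay below zero. TSPAN5 had a log2 fold change of -0.06 (adjusted p = 0.601 in edgeR) and TSPAN33 one of -0.16 (0.376). The proteases themselves had log2 fold changes of -0.03 for ADAM10 (adjusted p = 0.835) and 0.08 for ADAM17 (0.446). Of the corepressors, TLE4 fell from 171 ± 6.37 to 126 ± 7.98 CPM (SD, n = 3; log2 fold change -0.44, adjusted p = 1.79e-05) and TLE3 rose from 4.65 ± 0.723 to 7.16 ± 0.692 CPM (0.63, adjusted p = 0.000615). The 5 coactivators had log2 fold changes of -0.08 to 0.17 with adjusted p-values of at least 0.0827. BHLHE41, a helix-loop-helix repressor related to the HES genes, had a log2 fold change of -0.44 (adjusted p = 0.00157), and HES4 one of -0.31 (0.0380) that did not reach the fold threshold.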

How the data were processed

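RNA-seq had been carried out on 3 control and 3 FOXC1 KO libraries (KAPA mRNA HyperPrep, paired 75 bp reads). The deposited table held raw counts of reads for each gene. The authors had used STAR for alignment to hg19 and featureCounts with GENCODE annotation for the counting. Tool versions, the strand setting and the handling of reads that map to several places were not stated. Replicates were not pooled, and 0 columns belonged to other samples.

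Gene symbols, GRCh37 positions and merged exon lengths came from a GENCODE annotation lifted to GRCh37, which held 55538 (96.1%) of the gene identifiers. Genes were kept with filterByExpr (15647 genes), scaled with TMM, and tested in edgeR 4.0.16 (R 4.3.3) by its robust quasi-likelihood fit and F test, with group as the only term. P-values were adjusted by Benjamini-Hochberg over all tested genes, and the thresholds followed the study's methods. Standard errors came from the F statistic. DESeq2 1.42.0, the tool of the study, was an alternative. The others were RLE scaling, library size alone, no filter, a mean of at least 50 counts, thinning, a block on replicate number, omitting each library in turn, and other fold thresholds. The length of the canonical transcript was added after seeing the data. The fit was tested on simulated data. All 41 genes, every called gene of the other list, FOXC1 and the marker lists were to be named, and 1 marker list is not reported here. The genes and lists were chosen with earlier results of these data known.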

Additional observations from a re-analysis of the deposited data

How the results depend on the processing

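Over the alternatives that kept the rule for a call, the 10 called genes gave 127 values, of which 112 kept their direction and call and 15 lost the call, in DLK2 (6), HES1 (8) and DTX4 (1). JAG2, NOTCH1, APH1B, LFNG, RBPJ, HES7 and NRARP kept their call under those alternatives wherever they were tested. With a fold change over 2, 1 Notch gene was called lower and 2 higher, and the same counts were found with glmTreat against a 1.3-fold change. For the other pathway genes these settings gave 0 lower and 1 higher, and 0 lower and 2 higher, in edgeR, while no fold threshold gave 7 lower and 12 higher. DESeq2 called 3 of them lower and 7 higher at 1.3-fold. With no fold threshold, an unadjusted p under 0.05 in edgeR was found for 25 of the 48 and for 39.8% of all tested genes. The list was made with earlier results of these data known, so this is not a test of the pathway. Of all tested genes, 2233 were lower and 2372 higher with no fold threshold, 321 and 316 at a fold change over 2, and 494 and 516 with glmTreat, as stricter or looser thresholds must. DESeq2 called 3 Notch genes lower and 4 higher, and 996 and 1046 of all genes. With 1 library omitted at a time, 3 to 4 Notch genes were lower and 5 to 6 higher. Among genes that did not pass, the log2 fold change of DLL3 was 0.08 after thinning, and that of MIB2 ranged from -0.04 to 0.18 and that of HES6 from -0.09 to 0.06 with 1 library omitted. The cause was not tested. The largest shift of the overall median under any setting was -0.013 (log2). For replicate numbers 1 to 3 the deviations of both groups had correlations of -0.0402, -0.129 and 0.0734, so the numbers did not pair the libraries, and with the number as a block 4 Notch genes were lower and 6 higher. For genes with few counts, such as DTX4, HES7 and JAG2, depth limits the precision.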
